A study of Mus musculus with 8 samples.

Results

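The 10 genes described here, Atf4, Trib3, Chac1, Ddit3, Asns, Sesn2, Cth, Mthfd2, Slc3a2 and Slc7a5, are the stress factor ATF4's own gene and 9 of its known target genes. They were found as the probe sets whose platform annotation gives exactly 1 of these symbols, which yielded 17 probe sets for 10 of 18193 named genes, among 45037 probe sets tested. Which values led to this group is not given in the sources used here, and results of these arrays were known when it was proposed. The genes are treated as selected on the growth hormone changes, so their hormone values are a description with no p-value for any gene. The contrast between the cell lines, averaged over treatments, was tested, since in this balanced design its estimate is orthogonal to the hormone changes. Its p-values hold only as far as that contrast played no part in the choice. Both kinds of contrast share 1 spread estimate per probe set. A choice for clear hormone changes may favour genes with a small spread, which would lower these p-values too. With an array left out the design is no longer balanced, and the estimates are not orthogonal.

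The cells were C57BL/6 mouse embryonic fibroblasts without Stat5, the transcription factor downstream of the growth hormone receptor, and all 4 groups shared this background. A mutated STAT5 had been put back by retrovirus, either EA, whose label gives EE changed to AA in the binding domain, or YF, labelled Y694F, which removes the tyrosine that is phosphorylated on activation. Cells of each mutant were left unstimulated or were given growth hormone for 120 minutes, with 2 arrays in each of the 4 groups, called biological duplicates in the series text. No array with wild-type or empty-vector cells was analysed here. How many separate infections stand behind a mutant is not given in the sources used here, so the mutant and the culture that carries it cannot be told apart.

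ATF4 is made when kinases such as PERK and GCN2, which sense unfolded protein in the endoplasmic reticulum and missing amino acids, phosphorylate the initiation factor eIF2alpha. General translation then falls while the Atf4 mRNA is translated more, so its RNA level does not report the amount of the protein. ATF4 pairs with C/EBP factors on composite elements and drives genes for amino acid uptake and synthesis, folate metabolism, glutathione turnover and, under lasting stress, the death-linked factor CHOP. Growth hormone, an anabolic signal, acts through the kinase JAK2 and STAT5.

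The values are log2 expression values as deposited, in which 1 unit is a doubling. A mean below 4 marks a low group of 24773 probe sets (55.0%), inside which the scale is unknown. All 10 genes had a brightest probe set with a mean of 4 or more, and only the third Atf4 probe set (1439258_at) and the second Ddit3 probe set (1443897_at) lay in the low group. A gene is represented by its brightest probe set unless another is named. Replicate arrays correlated at 0.996 to 0.998 across probe sets, which are not independent replicates. Replicate 1 of YF with hormone stood apart on the second principal component (12.6% of the variance), with a score of -55.8 against -14.3 to 32.6 for the other 7 arrays. The YF hormone changes and the line differences rest on it, and their values without it are given where a call or the size changed most.

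Fibroblast identity was checked with 6 markers, all above the low group. The log2 of their summed unlogged values was 16.4 to 16.5 on the EA arrays and 16.5 to 16.6 on the YF arrays. This sum is carried by the brightest markers, Vim, Col1a2 and Col1a1, so a change in Thy1 moves it little. Of the 6, 2 passed as lower in EA. Thy1, a fibroblast surface protein, was at 7.64 and 7.60 in EA without and with hormone and at 12.68 and 12.49 in YF (log2 difference -4.96, limma adjusted p = 1.8e-05). Col1a1, a collagen chain, differed by -0.24 (SE 0.05, adjusted p = 0.031), a call lost without the YF array that stood apart. Of 4 leukocyte markers, Ptprc, the common leukocyte antigen CD45, and Adgre1 lay in the low group at 2.32 to 2.54, while Cd68, a lysosomal protein abundant in macrophages, was higher in EA by 3.15. The fourth, Csf1r, the receptor for a macrophage growth factor, was at 8.12 to 8.97 and did not pass (-0.38, SE 0.18, adjusted p = 0.31). The log2 of the summed unlogged leukocyte markers was 11.03 to 11.46 in EA and 8.95 to 9.82 in YF. All 4 epithelial and all 3 endothelial markers lay in the low group. The EA and YF cultures thus differed in marker genes as well, and the part of this in the differences below was not tested.

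The annotated promoters, from 250 bases before to 50 bases after the start of transcription, were searched for the core of the ATF4 composite element, the sequence through which the factor is known to act on several of these genes. RefSeq windows of GRCm38.p6 were matched for 8 of the 10 genes. The core, TGATGNAA on both strands, was found in 3 of the 8 windows, those of Trib3, Chac1 and Asns, and in 1219 of the 27025 genes with a window (4.51%). The windows lie at chr2:152344011-152344310 on the minus strand for Trib3, at chr2:119350992-119351291 on the plus strand for Chac1 and at chr6:7693160-7693459 on the minus strand for Asns, and they are printed 5' to 3' along the gene with the match in capitals.
Trib3: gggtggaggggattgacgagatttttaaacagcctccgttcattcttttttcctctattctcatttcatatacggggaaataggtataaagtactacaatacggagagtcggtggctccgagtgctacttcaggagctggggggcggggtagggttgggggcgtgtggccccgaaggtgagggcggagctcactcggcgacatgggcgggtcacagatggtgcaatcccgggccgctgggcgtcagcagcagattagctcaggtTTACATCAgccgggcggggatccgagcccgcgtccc
Chac1: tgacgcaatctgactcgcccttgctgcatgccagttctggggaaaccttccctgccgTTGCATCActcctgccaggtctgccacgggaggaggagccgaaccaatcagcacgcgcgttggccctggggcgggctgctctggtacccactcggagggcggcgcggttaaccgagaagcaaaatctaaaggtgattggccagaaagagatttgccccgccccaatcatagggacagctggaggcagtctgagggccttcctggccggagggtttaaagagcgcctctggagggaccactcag
Asns: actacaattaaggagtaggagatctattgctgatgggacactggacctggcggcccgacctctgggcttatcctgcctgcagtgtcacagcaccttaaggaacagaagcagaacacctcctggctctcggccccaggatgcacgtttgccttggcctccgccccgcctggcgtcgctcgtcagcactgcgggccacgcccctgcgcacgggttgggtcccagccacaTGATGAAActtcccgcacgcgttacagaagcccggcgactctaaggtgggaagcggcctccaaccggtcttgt
The match begins at base 15 from the start in Trib3, 193 bases before it in Chac1 and 23 bases before it in Asns. It reads along the gene in Asns and on the opposite strand in Trib3 and Chac1. The windows of Atf4, Ddit3, Sesn2, Mthfd2 and Slc3a2 do not hold these letters. A match is a description of the sequence and not a measured binding site.

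The comparison of the mutants asks how cells with the EA and the YF form of STAT5 differed. All 10 ATF4 genes had higher values in EA than in YF cells, averaged over treatments. The share of all genes with each sign is not given, here or for the sign counts below. Genes measured on the same arrays are not independent, so such counts are descriptions. Of the 10, 7 passed as higher and 0 as lower (limma adjusted p under 0.05), against 8.17% of all probe sets called higher and 19.7% of the 10779 genes whose brightest probe set had a mean of 4 or more. The median difference was 0.49 on the log2 scale, beside 0.02 over all genes and 0.05 over those 10779. The count was again 7 and the median 0.49 without the YF array that stood apart, with Ddit3 passing and Sesn2 not. The largest were in Trib3 and Cth, 3.05-fold and 2.99-fold, and the smallest was in Atf4 itself.

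Atf4, the transcription factor, read 13.08 and 13.20 on the EA arrays, 12.89 and 12.84 in EA with hormone, 12.83 and 12.84 in YF, and 12.89 and 12.85 in YF with hormone. The unstimulated EA arrays were thus the highest and the other 6 lay together. The average difference was 0.15 (SE 0.04, adjusted p = 0.052, 95% interval 0.05 to 0.24) and missed the threshold. A second Atf4 probe set, 1438992_x_at, gave 0.26 (SE 0.23, adjusted p = 0.64) with an SD between replicates of up to 0.55.

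Ddit3, which encodes the stress factor CHOP, read 10.03 and 10.25 in EA and 9.60 and 9.40 in EA with hormone. In YF it read 9.33 and 9.15, and with hormone 9.54 and 8.73. The last pair differed by more than any other pair of Ddit3, and the higher value came from the array that stood apart. The average difference of 0.63 (SE 0.19, adjusted p = 0.099, 95% interval 0.14 to 1.12) did not pass. Without that array it was 0.84 (SE 0.10, adjusted p = 0.0092), and over all alternatives tried the adjusted p ran from 0.0092 to 0.25.

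Trib3, a pseudokinase that restrains ATF4 and CHOP, had the largest average difference of the 10. The 2 EA arrays stood at 9.62 and 9.72 and the 2 YF arrays at 7.90 and 7.82. With hormone the levels were 8.02 and 7.62 in EA and 6.47 and 6.34 in YF. Within each treatment the EA arrays lay above the YF arrays, while hormone-treated EA cells overlapped with unstimulated YF cells. The average difference was 1.61 (SE 0.10, 3.05-fold, adjusted p = 0.00060), and the other Trib3 probe set gave 1.70 (SE 0.12, adjusted p = 0.00096). The suffix x_at of the brightest Trib3 and Asns probe sets marks probes that may also match other transcripts.

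Sesn2, a leucine sensor that holds back mTORC1, read 8.49 and 8.77 in EA and 7.89 and 7.94 in YF without hormone. With hormone it read 8.15 and 8.22 in EA and 8.19 and 8.29 in YF. The lines were apart before hormone and overlapped after it. The average difference of 0.33 (SE 0.07, adjusted p = 0.034) passed, but it was lost in 11 of 15 alternatives, among them both rescalings and the fit without the YF array that stood apart (0.31, adjusted p = 0.089), and the other Sesn2 probe set gave 0.06 (SE 0.17, adjusted p = 0.84).

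Chac1, an enzyme that degrades glutathione, had values of 10.15 and 10.50 in EA and 9.69 and 9.81 in YF, and of 8.38 and 8.63 in EA and 8.31 and 8.31 in YF with hormone. Its EA arrays were higher within each treatment, by 0.58 (SE 0.14) without and 0.19 (SE 0.14) with hormone. The average of 0.39 (SE 0.10, adjusted p = 0.059, 95% interval 0.13 to 0.64) missed the threshold.

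The genes of amino acid supply included all 5 whose arrays did not overlap between the lines. Cth, the cystathionine gamma-lyase that makes cysteine, read 7.60 and 7.87 in EA, 6.49 and 7.28 in EA with hormone, 5.70 and 6.13 in YF, and 5.70 and 5.38 in YF with hormone. Every EA array was above every YF array, with an average difference of 1.58 (SE 0.22, 2.99-fold, adjusted p = 0.0078). The replicates of EA with hormone had the widest spread of this gene (SD 0.56).

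Asns, asparagine synthetase, was at 13.76 and 13.75 in EA and at 13.75 and 13.71 with hormone. In YF it was at 13.26 and 13.27, and with hormone at 13.31 and 13.40. The difference of 0.43 (SE 0.03, 1.35-fold, adjusted p = 0.00091) exceeded the largest SD of any group, 0.07, and the other Asns probe set gave 0.57 (SE 0.06, adjusted p = 0.0029). Mthfd2, a mitochondrial folate enzyme, read 12.51 and 12.47 in EA, 12.22 and 12.12 in EA with hormone, 11.67 and 11.80 in YF, and 11.64 and 11.69 in YF with hormone. The difference was 0.63 (SE 0.04, adjusted p = 0.00080) on this probe set and 1.25 (SE 0.10, 2.37-fold, adjusted p = 0.0014) on the dimmer one. Both probe sets of either gene had no overlap between the lines.

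Slc3a2 and Slc7a5 encode the heavy and the light chain of the LAT1 transporter, which brings leucine and other large neutral amino acids into the cell. Slc3a2 read 12.89 and 12.85 in EA, 12.61 and 12.45 in EA with hormone, 12.07 and 12.14 in YF, and 12.37 and 12.25 in YF with hormone. Slc7a5 read 10.46 on both EA arrays, 10.11 and 10.14 with hormone, 9.67 and 9.81 in YF, and 9.83 and 9.93 in YF with hormone. For both chains the EA arrays were above all YF arrays, closest to each other after hormone. The differences were alike in size, 0.49 for Slc3a2 (SE 0.05, adjusted p = 0.0032) and 0.49 for Slc7a5 (SE 0.04, adjusted p = 0.0018), each 1.40-fold.

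In total 5 of the 10 genes, Cth, Asns, Mthfd2, Slc3a2 and Slc7a5, had all 4 EA arrays above all 4 YF arrays, which held for 9.54% of all probe sets and for 21.0% of the 10779 genes above. At the level of probe sets, 10 of the 15 outside the low group passed as higher in EA and 0 as lower, beside 8.17% and 8.38% of all probe sets. All 15 had values above 0. The share among all probe sets outside the low group is not given here, and several of the 15 belong to the same gene. The plot of values by array shows the levels, and the plot of mutant differences sets them against all genes.

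**Figure D1:**
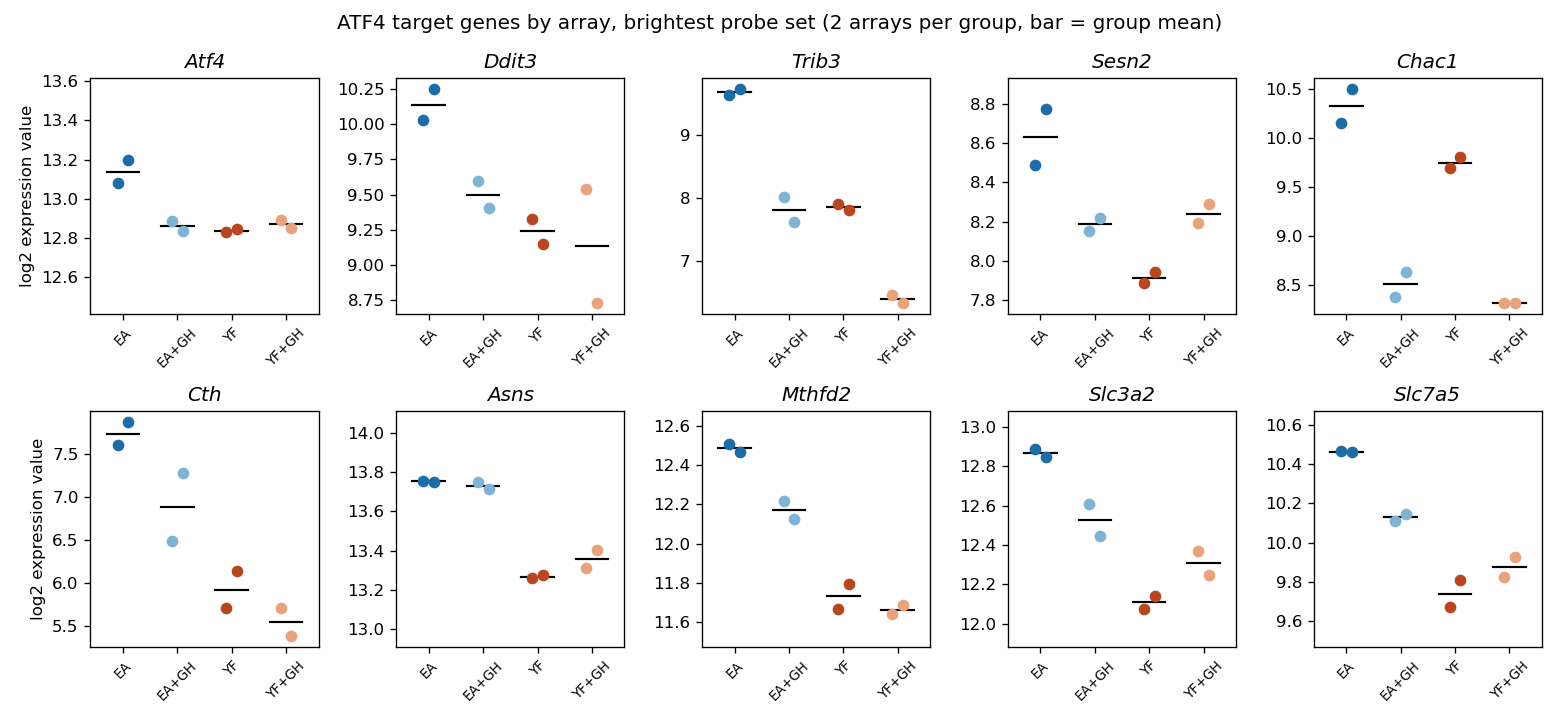
Log2 expression value (vertical axis, range set for each gene) of the brightest probe set of 10 genes on the 2 arrays of each group, where dots are arrays and bars are group means. The unstimulated EA arrays are the highest in every panel, and Trib3 and Chac1 are lower with hormone in both lines.

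**Figure D2:**
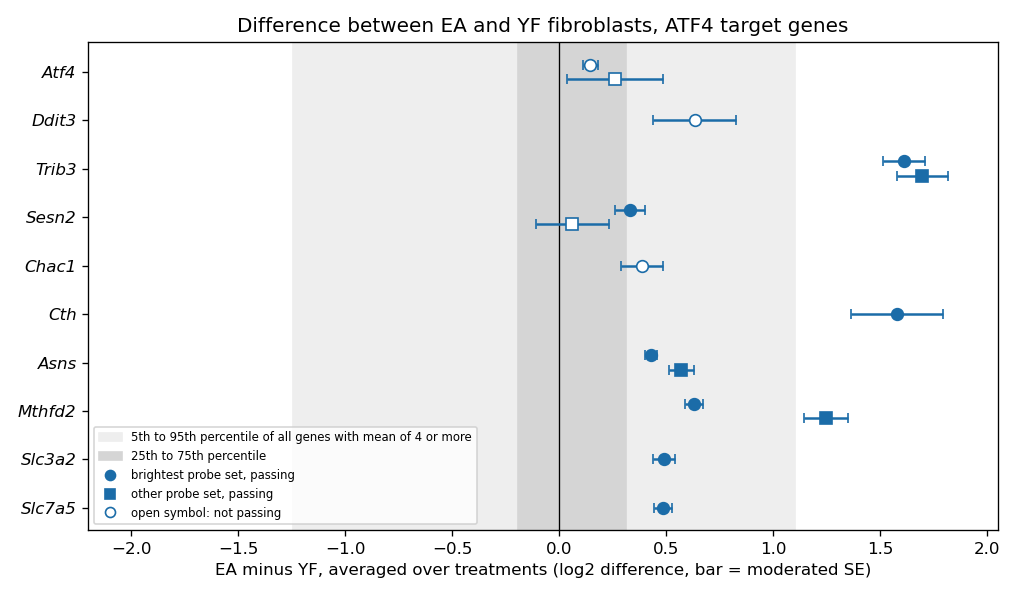
EA minus YF averaged over treatments (log2, horizontal axis) for the 15 member probe sets outside the low group, with moderated SE, circles for the brightest and squares for other probe sets and filled symbols for an adjusted p under 0.05. The grey bands give the percentiles of 10779 genes, whose middle range ran from -0.19 to 0.31, and all 15 symbols lie above 0.

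Split by treatment, the difference between the lines was larger before hormone than after it in all 10 genes on the brightest probe set. This is the same quantity as the change in EA minus that in YF given below. Among other probe sets outside the low group only that of Atf4 went the other way, with -0.02 (SE 0.32) before and 0.54 (SE 0.32) after hormone. The other Trib3 probe set was near equal, at 1.71 (SE 0.17) and 1.68 (SE 0.17). The median over the 10 was 0.74 without hormone, with the EA arrays above the YF arrays in 10 of 10 genes (43.4% of the 10779 genes and 21.6% of all probe sets). With hormone it was 0.31, without overlap in 7 of 10 (32.9% and 46.3%). For Trib3 the values were 1.81 (SE 0.14) and 1.41 (SE 0.14), and for Cth 1.81 (SE 0.31) and 1.34 (SE 0.31). For Slc3a2 they were 0.76 (SE 0.07) and 0.22 (SE 0.07), and for Sesn2 0.72 (SE 0.10) and -0.06 (SE 0.10). The median with hormone was 0.30 without the YF array that stood apart, with 9 of 10 above 0, and Ddit3 moved most, from 0.37 (SE 0.27) to 0.77 (SE 0.15). These values share arrays with the hormone changes and were not tested.

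The hormone comparisons ask what 120 minutes of growth hormone did in each line. In EA cells all 10 genes had lower values with hormone, from -1.85 to -0.02, with a median of -0.39 beside 0.02 over all genes and -0.03 over the 10779. In each of the 10 both hormone arrays lay below both unstimulated arrays (21.9% of the 10779 genes). Trib3 and Chac1 were called lower by limma and 0 genes higher, 2 of 10 beside 0.0422% of all probe sets called lower, 0.0933% called higher and 0.0835% of the 10779 genes called lower. Both calls were lost without the YF array that stood apart, although the EA changes themselves stay the same in that fit. It changes the spread estimate, its degrees of freedom and the adjustment over all probe sets. Leaving out any other array lost at least 1 of the calls. In YF cells 5 genes had values below 0 and 5 above, without overlap in 5 higher and 3 lower (31.4% and 23.7% of the 10779 genes), with a median of -0.02 beside -0.04 over all genes and 0.05 over the 10779. There 0 of 10 were called in either direction by limma on the brightest probe set, beside 0.0511% of all probe sets called lower and 0.129% higher. The other Trib3 probe set was called lower in YF and not in EA, so the line with a call depends on the probe set. The counts repeat the values taken to have chosen the genes, so they are no test and nothing is read from them.

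Trib3 and Chac1 had the largest hormone changes of the group in both lines. The Trib3 change was -1.85 (SE 0.14) in EA and -1.46 (SE 0.14) in YF, and the other probe set gave -1.88 (SE 0.17) and -1.85 (SE 0.17). Chac1 changed by -1.82 (SE 0.14) in EA and -1.44 (SE 0.14) in YF. In each line every hormone array of these genes was below every unstimulated array. Without the YF array that stood apart, the YF changes were -1.52 (SE 0.18) for Trib3 and -1.44 (SE 0.19) for Chac1.

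The other 8 genes had smaller values. Cth changed by -0.85 (SE 0.31) in EA and -0.38 (SE 0.31) in YF, or -0.54 (SE 0.39) without the array that stood apart, and Ddit3 by -0.64 (SE 0.27) and -0.10 (SE 0.27), the YF value being -0.51 (SE 0.15) without the array that stood apart and 0.30 without its partner. Atf4 changed by -0.28 (SE 0.05) in EA and 0.03 (SE 0.05) in YF, and Mthfd2 by -0.32 (SE 0.06) and -0.07 (SE 0.06). The dimmer Mthfd2 probe set gave 0.48 (SE 0.14) in YF and the second Atf4 probe set -0.58 (SE 0.32), or -0.20 (SE 0.28) without that array, so the sign in YF depends on the probe set for both genes. Asns changed by -0.02 (SE 0.04) in EA and 0.09 (SE 0.04) in YF, or 0.14 (SE 0.04) without that array.

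The transporter chains and Sesn2 had opposite signs in the lines, without overlap in either, as 5.7% of the probe sets with a mean of 4 or more did. The brightest probe sets of Atf4 and Asns did so too, with YF changes of only 0.03 and 0.09. Slc3a2 changed by -0.34 (SE 0.07) in EA and by 0.20 (SE 0.07) in YF, and Slc7a5 by -0.33 (SE 0.06) and 0.14 (SE 0.06). Sesn2 changed by -0.45 (SE 0.10) in EA and by 0.33 (SE 0.10) in YF. Without the YF array that stood apart the YF values were 0.14 (SE 0.08) for Slc3a2, 0.19 (SE 0.07) for Slc7a5 and 0.38 (SE 0.13) for Sesn2. On the brightest probe set, the change in EA minus that in YF was below 0 in all 10 genes, from -0.77 to -0.11, with a median of -0.43 beside 0.05 over all genes and -0.09 over the 10779. Without that array it was again below 0 in 10 of 10, with a median of -0.32. On other probe sets it was 0.56 (SE 0.45) for Atf4, and -0.03 (SE 0.24) for Trib3, or 0.17 (SE 0.37) and 0.01 (SE 0.29) without that array.

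**Figure D3:**
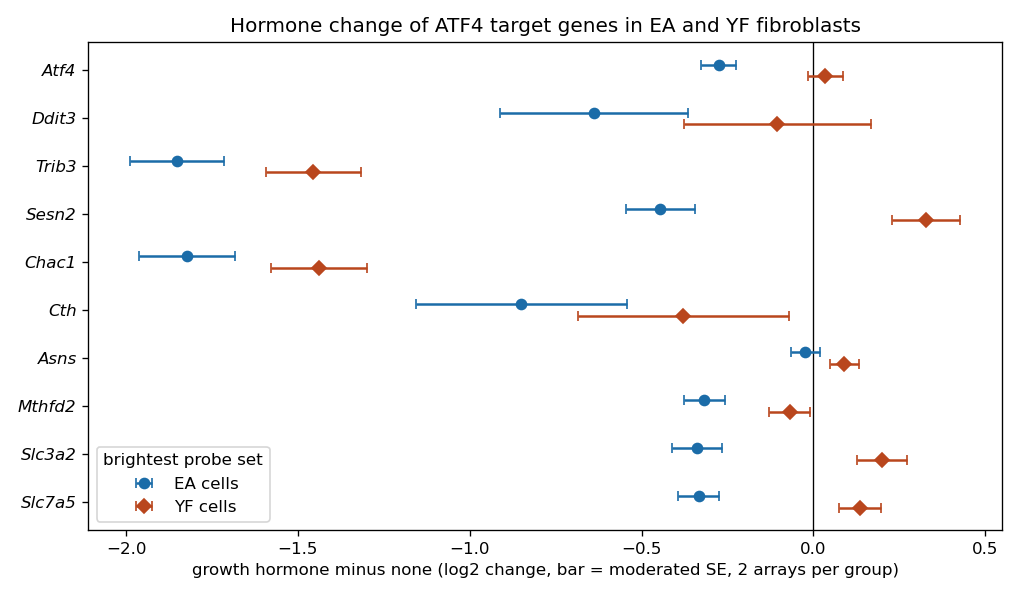
Growth hormone minus none (log2, horizontal axis) for the brightest probe set of each gene in EA cells (circles) and YF cells (diamonds), with moderated SE and 2 arrays per group. Trib3 and Chac1 lie between -1.85 and -1.44 in both lines. Sesn2, Slc3a2, Slc7a5, Atf4 and Asns have values below 0 in EA and above 0 in YF, with small YF values for Atf4 and Asns.

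The genes whose deviations ran most like Trib3 over the 8 arrays, after each line's mean was subtracted, were sought among 9852 non-member genes with a mean of 6 or more. They were Nudt4, Adamts5, Cflar, Ankmy2 and Perp, with Pearson correlations of 0.975, 0.975, 0.975, 0.974 and 0.973. Their hormone changes were small, from -0.35 to -0.10 over both lines. Among the members, Chac1 had a correlation of 0.976 with Trib3, Mthfd2 0.848, Cth 0.718, Atf4 0.687 and Ddit3 0.678. For Slc7a5 it was 0.444, for Slc3a2 0.372, for Sesn2 0.241 and for Asns -0.32. The 8 arrays share their hormone groups, so these are descriptions.

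The wider pathway was described with 7 lists of 75 genes, of which 72 were measured. Between the lines, averaged over treatments, 19 of the 72 passed as higher in EA and 5 as lower, beside 19.7% and 16.6% of the 10779 genes with a mean of 4 or more, to which 68 of the 72 belong, and 8.17% and 8.38% of all probe sets. In the hormone comparisons limma called 0 of the 72 in EA and 0 in YF. Unadjusted limma p-values under 0.05 numbered 1 above 0 and 11 below in EA, and 9 above and 3 below in YF. The share of all genes under that bound is not given here, and the YF counts include the array that stood apart. Nothing is read from these counts.

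Enzymes that make serine, glycine, proline and folate units were above 0 in 10 of 10 measured members in EA against YF, with 4 passing higher and 0 lower and a median of 0.31. Cbs among them lies in the low group. Aldh1l2, a mitochondrial folate dehydrogenase, was higher in EA by 0.99 (SE 0.10, limma adjusted p = 0.0028), Mthfd1l, another mitochondrial folate enzyme, by 0.93 (SE 0.08, adjusted p = 0.0019), and Gpt2, an alanine transaminase, by 0.48 (SE 0.06, adjusted p = 0.0067). The fourth was Pck2 (0.34), a mitochondrial carboxykinase. Of 7 other amino acid transporters 2 passed higher and 1 lower. Slc7a11, the cystine importer, was at 4.74 and 5.02 in EA and at 2.64 and 3.06 in YF without and with hormone, and this 2.03 (SE 0.32, adjusted p = 0.012) belongs to a probe set in the low group, whose scale is unknown. Slc6a9, a glycine transporter, was higher by 0.40 (SE 0.09, adjusted p = 0.039), and Slc38a2, a glutamine transporter, differed by -0.30 (SE 0.06, adjusted p = 0.020).

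Of 8 transcription factors that act with ATF4, 4 passed higher in EA and 2 lower. Atf3, a stress-induced repressor, was at 6.53 and 6.70 in EA and at 3.99 and 4.16 in YF, which is 2.55 apart (SE 0.32, limma adjusted p = 0.0057) with the YF side at the bound of the low group. Cebpb, a partner of ATF4, was higher by 0.87 (SE 0.20, adjusted p = 0.041), a call lost without the YF array that stood apart (0.78, adjusted p = 0.10), and Atf5 by 0.82 (SE 0.08, adjusted p = 0.0024). The fourth was Creb3l1 (0.71), and the lower ones were Nupr1 (-0.46) and Jdp2 (-0.18). Of 9 other stress genes 3 passed higher, Vldlr, a lipoprotein receptor (0.57), Gadd45a, a growth arrest gene (0.51), and Xpot, the tRNA exporter (0.47), and 0 lower. Without the YF array that stood apart 5 passed there.

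The 12 aminoacyl-tRNA synthetases differed less, with 2 passing higher, Gars (0.24) and Eprs (0.24), 0 lower and a median of 0.12, or 1 passing, Gars, without the YF array that stood apart. Their hormone values in EA were below 0 in 11 of 12, with a median of -0.06 beside -0.03 over the 10779 genes. In YF they were above 0 in 11 of 12, with a median of 0.24 beside 0.05, or 0.10 without the array that stood apart. The change in EA minus that in YF was below 0 in 12 of 12, with a median of -0.30 beside -0.09 over the 10779 genes. It was below 0 in 10 of 12 without that array. The share of all genes with each sign is not given here, so these counts are a description. The largest hormone values were -0.26 for Aars in EA (SE 0.20, limma adjusted p = 0.87) and 0.59 for Cars in YF (SE 0.38, adjusted p = 0.55), the latter 0.17 without that array.

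Upstream, 2 of the 8 measured eIF2alpha kinases and regulators passed as higher in EA and 0 as lower, or 1, Impact, and 0 without the YF array that stood apart. Eif2ak3, which encodes the kinase PERK, was higher by 0.63 (SE 0.12, limma adjusted p = 0.024) and Impact, an inhibitor of GCN2, by 0.29 (SE 0.05, adjusted p = 0.016). The other arm of the unfolded protein response, driven by ATF6 and XBP1, had 6 genes above 0 and 12 below. Of its 18 genes 2 passed higher, Pdia4 (0.81) and Edem1 (0.81), and 2 lower, Manf (-0.93) and Dnajc3 (-0.51), with a median of -0.09.

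With hormone, no list held a passing gene in limma, and each list's largest value is given here. In EA cells these were Cebpb (0.74), Ppp1r15a, the phosphatase subunit that reverses eIF2alpha phosphorylation (-0.74), Stc2 (-0.65), Cbs (-0.60), Pdia4 (-0.38), Slc7a1 (-0.37) and Aars (-0.26). In YF cells they were Cbs (1.01, with its mean in the low group), Cebpb (0.82), Vegfa (-0.59), Cars (0.59), Sdf2l1 (0.57), Slc7a11 (0.42, likewise) and Eif2b5 (0.36). Without the array that stood apart they were 0.13, 1.01, -0.22, 0.17, 0.38, 0.86 and 0.14 in the same order. Ppp1r15a, at -0.16 in YF with all arrays, was at -0.63 without that array, larger in size than Eif2b5. None of the 72 genes had a value as low as those of Trib3 and Chac1 in either line. Those are the extremes of genes treated as selected on these same values, so this is no test.

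**Figure D4:**
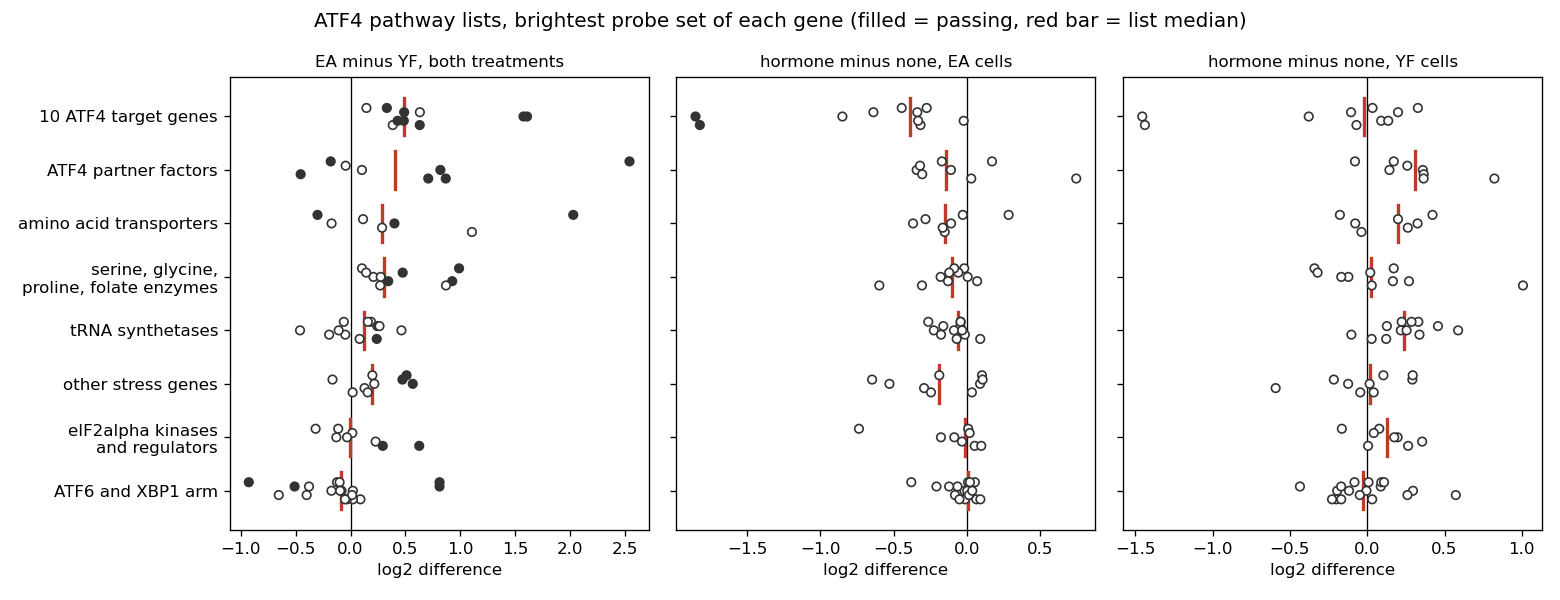
Log2 difference (horizontal axis) of each gene among the 10 described here, Atf4 and its targets, and in 7 pathway lists. Panels give EA minus YF averaged over treatments and hormone minus none in each line. Filled dots mark an adjusted p under 0.05 and red bars the list medians. The enzymes of serine, glycine, proline and folate lie above 0 in EA against YF. The tRNA synthetases lie mostly above 0 with hormone in YF cells, with 11 of 12 genes. The median of the 10779 genes with a mean of 4 or more was 0.05 there.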

How the data were processed

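RNA of 8 mouse fibroblast samples was measured on Affymetrix arrays of 45101 probe sets. The authors deposited log2 expression values, 1 column per array, and the submitters' processing notes name GCOS and RMA without versions or settings. No further normalization was applied. The deposited medians were 2.85 to 2.94, inside the low group, so they do not show how the brighter genes were scaled. The 75th percentiles of the arrays ran from 9.04 to 9.14. The 64 control probe sets were not used. Of the 45037 others 34945 carried 1 symbol, 932 several and 9160 none. Precision is limited by the 2 arrays per group.

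The test was limma 3.58.1 under R 4.3.3 (lmFit, eBayes), in a model of 4 group means over 8 arrays, with 4 residual degrees of freedom and a prior of 1.26, two-sided, adjusted by Benjamini-Hochberg over 45037 probe sets, passing under 0.05. The members, lists and tests were chosen with earlier results of these data known. All members were named, with up to 3 passing genes of each list, or its largest where none passed, and Pck2, Creb3l1, Nupr1, Jdp2, Dnajc3, Thy1, Col1a1, Csf1r and Cd68, which were named after their values were seen. In simulated data for the EA against YF contrast 30, 44, 49 and 50 of 50 changed probe sets were recovered at log2 changes of 1, 2, 3 and 4. For the hormone contrast they were 20, 35, 46 and 48 in EA, and 24, 40, 46 and 47 in YF. False calls were 15 of 188 calls for EA against YF, 12 of 161 for hormone in EA and 13 of 170 in YF. In the data the EA against YF contrast had far more calls, 3678 higher and 3773 lower, so its adjusted threshold is not that of the simulation. Most member differences between the lines were also below 1, the smallest change simulated. The recovery rates therefore do not give the power of that contrast. Alternatives were quantile normalization, median centring, a filter at a mean of 4, trend and robust estimation, a replicate block, the dimmest probe set at or above 4 and leaving out each array. Replicate numbers are shared across groups, but same-numbered arrays deviated together only in part, so they were not taken as pairs.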

Additional observations from a re-analysis of the deposited data

Results flagged for a closer look

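In 6 member probe sets both EA arrays with hormone lay below both EA arrays without it, while both YF arrays with hormone lay above both without it. The change in EA minus that in YF was -0.86 for the dimmer Mthfd2 probe set, -0.77 for Sesn2, -0.54 for Slc3a2, -0.47 for Slc7a5, -0.31 for Atf4 and -0.11 for Asns. These differences between the lines were not tested. Such opposite movement was seen in 5.7% of the probe sets with a mean of 4 or more. Without the YF array that stood apart the values were -0.79, -0.82, -0.48, -0.52, -0.29 and -0.16 in the same order. For Atf4, Asns, Mthfd2 and Sesn2 the other probe set outside the low group did not show it. No group has enough arrays to look for single outlying arrays.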

How the results depend on the processing

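Of the 10 genes, 7 passed between the lines, and 6 to 9 did under the alternatives (6 to 9 when 1 array was left out, 8 with the replicate block, 8 with that block after the EA numbers were crossed). Trib3, Asns, Cth, Mthfd2, Slc3a2 and Slc7a5 passed in all 15 alternatives, Sesn2 and Ddit3 in 4, and Atf4 and Chac1 in 3. Atf4 was called with quantile normalization, the crossed block and without EA replicate 1 (adjusted p of 0.0345 to 0.64 over the alternatives). Ddit3 was called with the filter, trend and robust estimation, the crossed block and without replicate 1 of YF with hormone. Chac1 was called with the filter, the block and without EA replicate 1 (0.031 to 0.17). The number of members called lower with hormone in EA, 2, was 1 with quantile normalization, median centring, the crossed block or the dimmest probe set, 0 with the replicate block and 0 to 1 when 1 array was left out. In YF it was 0, and 1 with quantile normalization, the crossed block or the dimmest probe set, 2 with the filter or with trend and robust estimation, and 0 when 1 array was left out. The cause was not tested, apart from fewer arrays or genes entering the fit. Over all probe sets the calls with hormone ran from 2 to 44 lower (19) and 7 to 62 higher (42) in EA, and from 1 to 176 lower (23) and 7 to 499 higher (58) in YF. Median centring gave 23 higher and 22 lower in EA (51.1% higher against 68.9%). The medians it uses lie inside the low group. No called member changed sign. Deviations of same-numbered arrays correlated at -0.21 between EA and EA with hormone, 0.12 between YF and YF with hormone, -0.06 between EA and YF, and 0.37 between the hormone groups. The crossed pairing was added after seeing the data. With 2 arrays per group, small changes near the SE cannot be resolved.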
